A study of Mus musculus with 9 samples.

Results

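The genes described here are 10 transcription regulators tied to lymphoid priming, the low-level transcription of lymphoid genes in multipotent progenitors that have not yet committed to a lineage: Ikzf1, Ikzf2, Ikzf3, Satb1, Mef2c, Bcl11a, Foxo1, Myb, Mn1 and Sox4. The list was chosen with earlier results of these data known. Its genes were taken by name, with every probe set that the platform annotation assigns to one of them alone. This gave 41 of the 45037 probe sets that are not controls, and 10 of the 18193 genes with a probe set of their own. Expression was measured on 9 Affymetrix 3-prime arrays, on which a probe set is a group of short probes that together report 1 transcript.

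RNA came from E2A-/- mice, Lyl1-/- mice and wild type (WT) controls, with 3 arrays per genotype. From the bone marrow of each, cells without lineage markers and with CD117, SCA-1 and CD135 on the surface had been sorted, the phenotype of multipotent progenitors that include those primed for lymphoid fates. E2A, encoded by Tcf3, is an E protein, and Lyl1 is a basic helix-loop-helix factor that binds DNA together with E proteins. The sources used here name no strain, age, sex, allele design or pooling of animals; the same holds for the tissues in which the genes are deleted. The labels call the 3 samples of a genotype independent. WT 1 and WT 3 nevertheless differed by little more at bright probe sets than at dim ones, so they were averaged and WT counted as 2 samples.

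In multipotent progenitors, lymphoid priming is known to depend on Ikaros (Ikzf1) and E proteins, which open and activate lymphoid genes, while a first wave of factors such as Mef2c, Bcl11a, Foxo1 and Myb acts at or above the receptors Flt3 and Il7r. E proteins bind the E-box, a short DNA motif written CANNTG. Tal1, Lyl1 and their partners bind the same motif as heterodimers with E proteins.

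The arrays differed in ways that the genotypes do not define. The actin 3-prime over 5-prime ratio, which is high for degraded RNA, was 10.1 on E2A-/- 2 and 10.6 on WT 2, against 2.85 to 4.23 on the others. Transcripts of mature granulocytes and monocytes, such as Lyz2, S100a8 and S100a9, read above the array median on all 9 arrays, and some arrays had far more of them. The summed intensity of the 14 measured genes of that list was 2178, 18065 and 20725 on the E2A-/- arrays, 4080, 3598 and 2460 on the Lyl1-/- arrays, and 2167 to 2687 on the WT arrays, with Itgam below the array median throughout. Xist, read in female cells, read 2362 on E2A-/- 2, 2011 on Lyl1-/- 1 and 2001 on Lyl1-/- 2, and at most 103.7 elsewhere. Erythroid transcripts (5 measured genes) summed to 1356 on E2A-/- 3 and to 415 to 699 on the other 8 arrays. Of the genes of the sort markers, Kit and Flt3 were measured and lay above the array median on all 9 arrays, as did the progenitor gene Cd34. Of the 6 measured genes of mature T and NK cells 1 (Cd3g) lay below the median on all arrays, and of the 6 of mature B and plasma cells 3 did (Cd79a, Ms4a1 and Fcer2a). The T and NK list summed to 1452 to 1929 on the E2A-/- arrays, 1222 to 1349 on the Lyl1-/- arrays and 1087 to 1335 on the WT arrays, most of it Nkg7. The B and plasma list summed to 727 to 750 on the E2A-/- arrays, 423 to 505 on the Lyl1-/- arrays and 564 to 593 on the WT arrays, with Sdc1 the gene that differed most. Lyl1 itself read at most 92.0 on the Lyl1-/- arrays, at least 825 in E2A-/- cells and at least 1352 in WT cells. The brightest Tcf3 probe set read between 121.4 and 192.8 in E2A-/- cells and between 164.2 and 204.6 in WT cells. No source used here says whether it lies in the deleted part, so it does not check the E2A-/- label.

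None of the 10 regulators passed the test for a difference between genotypes. Of the 10 genes, 9 were tested, and Ikzf3 was too dim. Of their 41 probe sets 32 were tested, 29 of them above the array median on all 9 arrays. The probe sets not tested were too dim, among them all 3 of Ikzf3. The test was limma's moderated test on log2 intensity with Benjamini-Hochberg adjustment over all tested genes (11961) or probe sets (20402), and a call needs an adjusted p under 0.05. In E2A-/- cells against WT 0 of 9 genes and 0 of 32 probe sets passed, where 0.226% of all tested genes and 0.221% of all tested probe sets did. In Lyl1-/- cells against WT the counts were again 0 of 9 and 0 of 32, beside 0.192% of all genes and 0.216% of all probe sets. Between E2A-/- and Lyl1-/- cells they were 0 of 9 and 0 of 32 as well, beside 0.117% and 0.0735%. These counts of 0 are near those shares and do not set the regulators apart.

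Below that threshold the medians lay under 0. The median log2 difference of the 9 tested genes was -0.14 in E2A-/- cells and -0.23 in Lyl1-/- cells, against -0.013 and -0.0048 over all tested genes, and 6 of 9 were lower in each comparison, where 53.7% of all tested genes were lower in E2A-/- cells and 51.4% in Lyl1-/- cells. Both comparisons use the same WT samples. At an unadjusted p under 0.05, 1 of 9 genes was lower in E2A-/- cells (Myb) and 3 of 9 were lower in Lyl1-/- cells (Foxo1, Myb and Mn1), while 0 were higher in either. Among all tested genes 5.36% were lower and 3.21% higher in E2A-/- cells at that threshold, and 5% lower and 3.8% higher in Lyl1-/- cells. Of the 32 probe sets, 4 (12.5%) were lower in E2A-/- cells, from 3 genes, and 8 (25%) were lower in Lyl1-/- cells, from 6 genes, with 0 higher in either. Among all tested probe sets the shares were 5.11% lower and 2.97% higher in E2A-/- cells, and 4.88% lower and 3.48% higher in Lyl1-/- cells. Probe sets of 1 gene are not independent counts. The regulators were chosen with earlier results of these data known, so these medians and counts are no independent test.

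These unadjusted counts moved with the arrays used and with the settings. Over all alternatives, probe sets lower in E2A-/- cells numbered 0 to 6 and those lower in Lyl1-/- cells 4 to 10, and genes numbered 0 to 2 and 0 to 3 in the same order. The highest counts came with all 9 arrays as separate samples (6 probe sets in E2A-/- cells), without E2A-/- 2 (2 genes in E2A-/- cells), and without WT 3 or with a variance prior that follows the mean (10 probe sets in Lyl1-/- cells). The 4 probe sets lower in E2A-/- cells became 2 without WT 2, 0 without E2A-/- 2 and E2A-/- 3, the arrays with the most granulocyte transcripts, and 0 without WT 2 and E2A-/- 2, the arrays of high actin ratio. The 8 probe sets lower in Lyl1-/- cells became 5 when any one of WT 2, Lyl1-/- 1 and Lyl1-/- 2 was left out. They became 4 when WT 1 and WT 3, or WT 2 and E2A-/- 2, were left out together. With the actin ratio or the Xist signal as a covariate the Lyl1-/- count was 5. The 3 genes lower in Lyl1-/- cells became 0 on leaving out Lyl1-/- 2, or WT 1 and WT 3 together, and 1 on leaving out Lyl1-/- 1, WT 1 or E2A-/- 1, or with either covariate. The 1 gene lower in E2A-/- cells, Myb, was no longer among them in the 3 fits that left out pairs of arrays. When a gene's probe sets were averaged, Myb stood at -0.070 (unadjusted p = 0.469, limma adjusted p = 0.917) in E2A-/- cells, and the 1 gene lower was Bcl11a. Of the fits without 1 or 2 arrays, some have a genotype with only 1 sample, so its own variation cannot be estimated. For WT this holds in every fit without WT 2, and in the fit without WT 1 and WT 3, where WT 2 alone remains. For E2A-/- cells it holds when E2A-/- 2 and E2A-/- 3 are both left out. In such fits that genotype is taken to vary as much as the others.

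**Figure D1:**
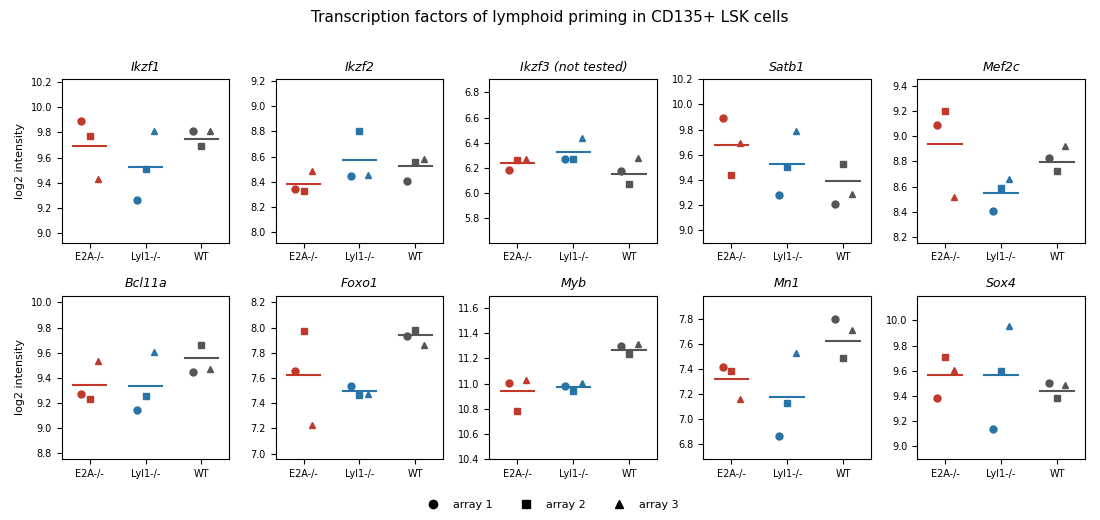
Log2 intensity (vertical axis) of the probe set that represents each of the 10 genes, 1 panel per gene, with E2A-/- arrays on the left, Lyl1-/- arrays in the middle and WT arrays on the right. Each point is 1 array and the bar is the mean of the group, with WT 1 and WT 3 averaged first; the Myb knockout arrays lie below all WT arrays, while Ikzf1, Satb1, Bcl11a and Sox4 overlap between all genotypes.

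Myb, a factor that definitive haematopoiesis and several steps of lymphocyte development need, had the largest F statistic over genotypes of the 9 tested genes. Its brightest probe set, 1421317_x_at, read 2051, 1760.3 and 2093 on the E2A-/- arrays, 2024, 1969 and 2051 on the Lyl1-/- arrays, and 2516, 2406 and 2550.5 on the WT arrays. All 6 knockout arrays lay below all 3 WT arrays. WT 1 and WT 3 count as 1 sample, so this and the separations below are from 2 WT samples. The share of all tested probe sets separated in this way is not given here. The mean log2 intensity was 10.94 ± 0.14 in E2A-/- cells (SD, n = 3), 10.98 ± 0.03 in Lyl1-/- cells (n = 3) and 11.27 ± 0.053 in WT cells (n = 2). Against WT the difference was -0.33 (SE 0.10, unadjusted p = 0.0122, limma adjusted p = 0.399) in E2A-/- cells and -0.29 (SE 0.10, unadjusted p = 0.0214, limma adjusted p = 0.446) in Lyl1-/- cells. Its 95% intervals were -0.57 to -0.093 and -0.53 to -0.056 in the same order, and the knockouts differed from each other by -0.037.

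The other 2 Myb probe sets did not follow. Probe set 1450194_a_at read 373, 684 and 299 on the E2A-/- arrays, 469.6, 549 and 377 on the Lyl1-/- arrays, and 394, 395 and 354 on the WT arrays, with E2A-/- 2 the highest of all. Its difference from WT was 0.14 (SE 0.31, limma adjusted p = 0.973) in E2A-/- cells and 0.26 (SE 0.31, limma adjusted p = 0.924) in Lyl1-/- cells. Probe set 1422734_a_at read 147, 125 and 147 on the E2A-/- arrays, 141, 192 and 202 on the Lyl1-/- arrays, and 137, 143 and 144 on the WT arrays, with Lyl1-/- 2 and 3 above every other array. Here E2A-/- cells stood at -0.021 and Lyl1-/- cells at 0.31 against WT. The suffix x marks probe sets some of whose probes match other transcripts, and the suffix a those that read several transcripts of 1 gene. Which of the 3 reports total Myb RNA was not tested.

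Bcl11a, a zinc finger factor that B cell development needs and that silences fetal globin genes, had 6 tested probe sets. All 6 had a lower mean in both knockouts than in WT. The brightest, 1419406_a_at, read 618, 600.0 and 743 on the E2A-/- arrays, 566, 611 and 781 on the Lyl1-/- arrays, and 697, 811 and 708 on the WT arrays. The groups overlapped, and the difference from WT was -0.21 (SE 0.16, limma adjusted p = 0.826) in E2A-/- cells and -0.22 (SE 0.16, limma adjusted p = 0.789) in Lyl1-/- cells. Probe set 1456632_at read 240.2, 209 and 196 on the E2A-/- arrays, 223, 207 and 261 on the Lyl1-/- arrays, and 305, 335 and 295 on the WT arrays. Every knockout array lay below every WT array there, with mean log2 intensities of 7.74 ± 0.15 in E2A-/- cells (SD, n = 3), 7.84 ± 0.17 in Lyl1-/- cells (n = 3) and 8.31 ± 0.11 in WT cells (n = 2). This was the member probe set with the smallest p in E2A-/- cells, at -0.57 (SE 0.13, unadjusted p = 0.00252, limma adjusted p = 0.231), and in Lyl1-/- cells it stood at -0.47 (SE 0.13, unadjusted p = 0.00756, limma adjusted p = 0.358). Probe set 1457072_at also had all knockout arrays below WT, with -0.27 in E2A-/- cells and -0.33 (SE 0.12, unadjusted p = 0.0267, limma adjusted p = 0.5) in Lyl1-/- cells. For the 3 others the differences ran from -0.23 to -0.059 in E2A-/- cells and from -0.10 to -0.035 in Lyl1-/- cells. A seventh probe set, 1453814_at, read 60.7 to 70.4 and was not tested.

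Sox4, an HMG box factor needed for early B cell development, gave opposite readings from different probe sets. The brightest, 1433575_at, read 668, 838 and 780.4 on the E2A-/- arrays, 564, 775 and 991 on the Lyl1-/- arrays, and 723, 667 and 716 on the WT arrays. The groups overlapped, with Lyl1-/- 1 the lowest and Lyl1-/- 3 the highest array of all. Its difference from WT was 0.13 (SE 0.21, limma adjusted p = 0.951) in E2A-/- cells and 0.13 (SE 0.21, limma adjusted p = 0.948) in Lyl1-/- cells. A further pair of bright probe sets pointed down. Probe set 1419156_at read 514, 484 and 489 on the E2A-/- arrays, 499, 397 and 493 on the Lyl1-/- arrays, and 624, 675 and 622 on the WT arrays. All 6 knockout arrays were below all WT arrays, and the difference was -0.39 (SE 0.12, unadjusted p = 0.0112, limma adjusted p = 0.418) in E2A-/- cells and -0.49 (SE 0.12, unadjusted p = 0.00302, limma adjusted p = 0.247) in Lyl1-/- cells. Probe set 1419155_a_at read 647, 637 and 657 on the E2A-/- arrays, 654, 477 and 631 on the Lyl1-/- arrays, and 793, 756 and 823 on the WT arrays, again without overlap. Its differences were -0.27 in E2A-/- cells and -0.43 (SE 0.14, unadjusted p = 0.0145, limma adjusted p = 0.427) in Lyl1-/- cells.

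The dimmer Sox4 probe set 1419157_at read 96.3, 78.7 and 77.4 on the E2A-/- arrays, 97.5, 80.0 and 117 on the Lyl1-/- arrays, and 104, 122 and 109.6 on the WT arrays. It was below WT on all E2A-/- arrays, at -0.45 (SE 0.17, unadjusted p = 0.029, limma adjusted p = 0.568), while Lyl1-/- 3 lay inside the WT range and the Lyl1-/- difference was -0.24. The remaining tested probe sets, 1455867_at and 1449370_at, stayed between 97.1 and 113.4 on all arrays, with differences from WT between -0.048 and 0.055. The last 2, 1458332_x_at and 1443778_at, read 53.1 to 71.6 and were not tested. Averaged over its probe sets Sox4 stood at -0.11 in E2A-/- cells and -0.12 in Lyl1-/- cells, the opposite sign of its brightest probe set.

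**Figure D2:**
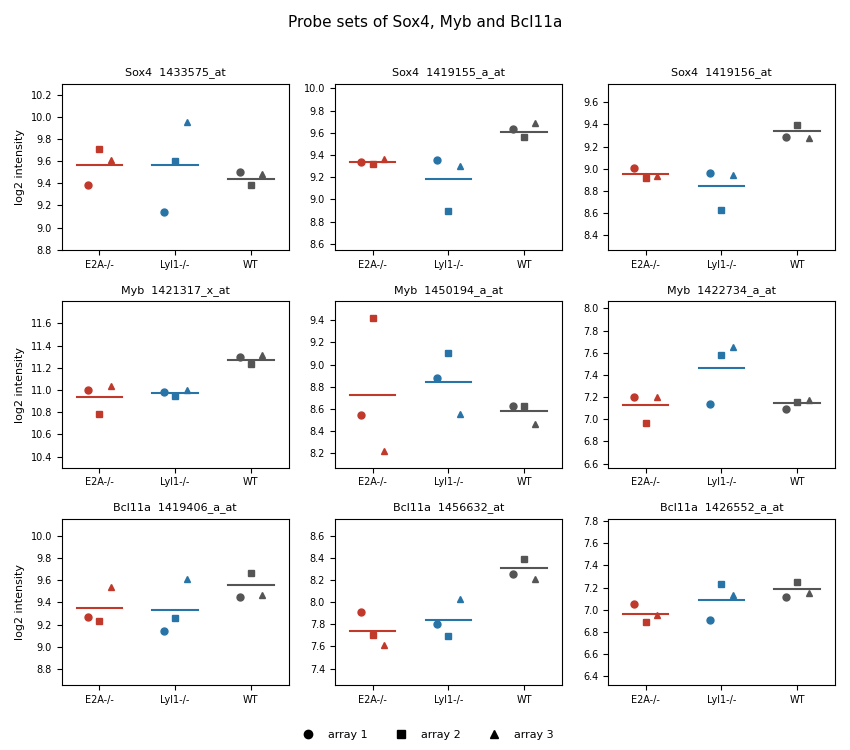
Log2 intensity (vertical axis) of single probe sets of Sox4, Myb and Bcl11a. E2A-/- arrays are left, Lyl1-/- arrays in the middle and WT arrays right. Points are arrays and bars are group means, with WT 1 and WT 3 averaged first; Sox4 1419156_at lies below WT on all 6 knockout arrays while Sox4 1433575_at overlaps.

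The promoters of these 3 genes are shown for their E-boxes. Each has a probe set lower on all 6 knockout arrays, a trait whose share among all tested probe sets is not given here. The sequences are RefSeq's on GRCm38.p6, from 250 bases before to 50 bases after the annotated start, 5′ to 3′ on the strand of the gene, and capitals mark each CANNTG. They lie at chr10:21160935-21161234, minus strand (Myb), chr11:24080445-24080744, plus strand (Bcl11a) and chr13:28953650-28953949, minus strand (Sox4).
Myb: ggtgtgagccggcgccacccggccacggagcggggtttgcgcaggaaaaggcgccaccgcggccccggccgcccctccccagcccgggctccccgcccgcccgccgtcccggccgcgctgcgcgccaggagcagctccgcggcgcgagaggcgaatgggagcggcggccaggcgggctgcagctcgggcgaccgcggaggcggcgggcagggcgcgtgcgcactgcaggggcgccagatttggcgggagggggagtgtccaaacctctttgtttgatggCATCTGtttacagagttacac
Bcl11a: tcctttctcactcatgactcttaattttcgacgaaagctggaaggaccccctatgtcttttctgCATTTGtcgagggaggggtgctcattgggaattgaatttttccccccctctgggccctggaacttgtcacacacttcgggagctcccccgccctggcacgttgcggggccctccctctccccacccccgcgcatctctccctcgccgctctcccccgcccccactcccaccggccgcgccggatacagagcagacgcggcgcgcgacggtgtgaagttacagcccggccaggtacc
Sox4: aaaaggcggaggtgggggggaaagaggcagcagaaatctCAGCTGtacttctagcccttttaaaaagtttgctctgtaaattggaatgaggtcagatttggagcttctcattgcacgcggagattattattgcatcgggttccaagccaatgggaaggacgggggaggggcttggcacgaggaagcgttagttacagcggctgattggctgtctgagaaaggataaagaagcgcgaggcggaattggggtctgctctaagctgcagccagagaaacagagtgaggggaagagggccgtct
Each window holds 1 E-box. In Myb it is CATCTG, whose first base is 30 bases after the start; in Bcl11a it is CATTTG, 186 bases before the start; in Sox4 it is CAGCTG, 211 bases before the start. The motif CANNTG reads the same on both strands. By symbol, 7 of the 10 genes matched a promoter in RefSeq's set, 14 in all, since Satb1, Mef2c and Ikzf1 have several starts; Ikzf2, Ikzf3 and Mn1 were not matched. Of the 14 promoters 10 held CANNTG, as did 72.3% of all 32851 promoters of the same length. Among the 10 are 2 Satb1 windows that overlap and share 1 CACTTG, which is counted in both. The more specific form CAGCTG was in 2 of the 14 and in 16.3% of all promoters. The form CAGGTG, counted on both strands, was in 2 and in 20.2%. Likewise the form CAGATG was in 2 and in 17.2%. Each of these is contained in the count of CANNTG. A match in these windows is a description of the letters, and binding was not measured here.

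Foxo1, a forkhead factor that acts at the interleukin-7 receptor gene and in early B cells, was low in Lyl1-/- cells on every array. Probe set 1416983_s_at, whose suffix s marks probes shared among related transcripts, read 202, 252 and 149.7 on the E2A-/- arrays, 186, 177 and 178 on the Lyl1-/- arrays, and 244, 253 and 232 on the WT arrays. The Lyl1-/- arrays lay below WT without overlap and close together, while the E2A-/- arrays were spread, with E2A-/- 2 inside the WT range and E2A-/- 3 the lowest of all. Mean log2 intensity was 7.62 ± 0.38 in E2A-/- cells (SD, n = 3), 7.49 ± 0.041 in Lyl1-/- cells (n = 3) and 7.94 ± 0.062 in WT cells (n = 2). The difference from WT was -0.32 (SE 0.19, limma adjusted p = 0.742) in E2A-/- cells and -0.45 (SE 0.19, unadjusted p = 0.0444, limma adjusted p = 0.554) in Lyl1-/- cells. Probe set 1416981_at read 102, 92.3 and 107 on the E2A-/- arrays, 100.5, 99.0 and 90.4 on the Lyl1-/- arrays, and 105, 110.1 and 109 on the WT arrays. Probe set 1416982_at read 101, 105 and 93.5 on the E2A-/- arrays, 90.7, 102 and 82.5 on the Lyl1-/- arrays, and 109, 113 and 103 on the WT arrays. Both had all Lyl1-/- arrays below WT, with differences of -0.17 and -0.25, and stood at -0.12 and -0.13 in E2A-/- cells. The fourth probe set, 1456529_at, read 69.2 to 79.9 and was not tested.

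Mn1, a transcriptional coregulator that drives myeloid leukaemia in mice when overexpressed, had 1 probe set. It read 171, 167 and 143 on the E2A-/- arrays, 117, 140.0 and 185 on the Lyl1-/- arrays, and 223, 179 and 209 on the WT arrays. The E2A-/- arrays were all below WT, and Lyl1-/- 1 and 2 were lower still, but Lyl1-/- 3 lay within the WT range. Mean log2 intensity was 7.32 ± 0.14 in E2A-/- cells (SD, n = 3), 7.17 ± 0.33 in Lyl1-/- cells (n = 3) and 7.62 ± 0.19 in WT cells (n = 2). Mn1 differed from WT by -0.30 (SE 0.19, limma adjusted p = 0.766) in E2A-/- cells and by -0.45 (SE 0.19, unadjusted p = 0.0453, limma adjusted p = 0.557) in Lyl1-/- cells.

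Mef2c, a MADS box factor that favours lymphoid over myeloid fates in progenitors, had the largest difference between the knockouts of the 9 tested genes. Probe set 1424852_at read 546, 589.7 and 365 on the E2A-/- arrays, 339, 385 and 404 on the Lyl1-/- arrays, and 453, 423 and 486 on the WT arrays. The Lyl1-/- arrays lay below WT, whereas E2A-/- 1 and 2 were above every WT array and E2A-/- 3 was below them. Mean log2 intensity was 8.94 ± 0.37 in E2A-/- cells (SD, n = 3), 8.55 ± 0.13 in Lyl1-/- cells (n = 3) and 8.80 ± 0.11 in WT cells (n = 2). Against WT the difference was 0.14 (SE 0.20, limma adjusted p = 0.939) in E2A-/- cells and -0.25 (SE 0.20, limma adjusted p = 0.826) in Lyl1-/- cells. E2A-/- minus Lyl1-/- was 0.39 (SE 0.18, unadjusted p = 0.0573, limma adjusted p = 0.591). Relative to the WT mean, Mef2c stood at 0.29 on E2A-/- 1, where the granulocyte and monocyte list summed to the WT level, and at 0.41 and -0.29 on E2A-/- 2 and 3, where it was far higher. On E2A-/- 3, the lowest E2A-/- array for Mef2c and Foxo1, the erythroid sum was also the highest, and its part in these values was not tested.

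The other Mef2c probe sets agreed on the order of the knockouts. Probe set 1451507_at read 104, 120.0 and 96.8 on the E2A-/- arrays, 79.9, 85.3 and 88.9 on the Lyl1-/- arrays, and 116, 131 and 117 on the WT arrays. It separated Lyl1-/- from both other genotypes and gave the smallest p of any member probe set, -0.55 (SE 0.12, unadjusted p = 0.00156, limma adjusted p = 0.211) against WT. E2A-/- minus Lyl1-/- was 0.33 (SE 0.11, unadjusted p = 0.0134, limma adjusted p = 0.506) there, and E2A-/- minus WT -0.21. The Lyl1-/- readings of 1451507_at were dim, above but near the medians of those arrays, 77.9, 77.9 and 79.2. Probe set 1421027_a_at read 203, 173 and 157 on the E2A-/- arrays, 100, 143 and 149 on the Lyl1-/- arrays, and 144, 153 and 143 on the WT arrays, with all E2A-/- arrays above all others. It stood at 0.25 in E2A-/- cells and -0.21 in Lyl1-/- cells against WT, and at 0.46 (SE 0.16, unadjusted p = 0.0221, limma adjusted p = 0.544) between the knockouts. For 1451506_at and 1421028_a_at the genotypes overlapped, with E2A-/- minus Lyl1-/- at 0.088 and 0.14.

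Of the 32 probe sets, 2 were higher and 1 lower in E2A-/- than in Lyl1-/- cells at an unadjusted p under 0.05. The 2 were the Mef2c ones just given, and the 1 was Myb 1422734_a_at at -0.33 (SE 0.14, unadjusted p = 0.046, limma adjusted p = 0.63). Among all tested probe sets 3.48% were higher and 4.24% lower at that threshold. The 2 higher ones became 4 without E2A-/- 3, 1 without E2A-/- 1, 1 without Lyl1-/- 1 and 0 without WT 2 and E2A-/- 2, and the 1 lower one was lost on leaving out WT 2, E2A-/- 3 or Lyl1-/- 3. Over the 9 genes the median of E2A-/- minus Lyl1-/- was 0.13, with 7 higher and 2 lower, against -0.0084 over all tested genes, of which 47.4% were higher.

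**Figure D3:**
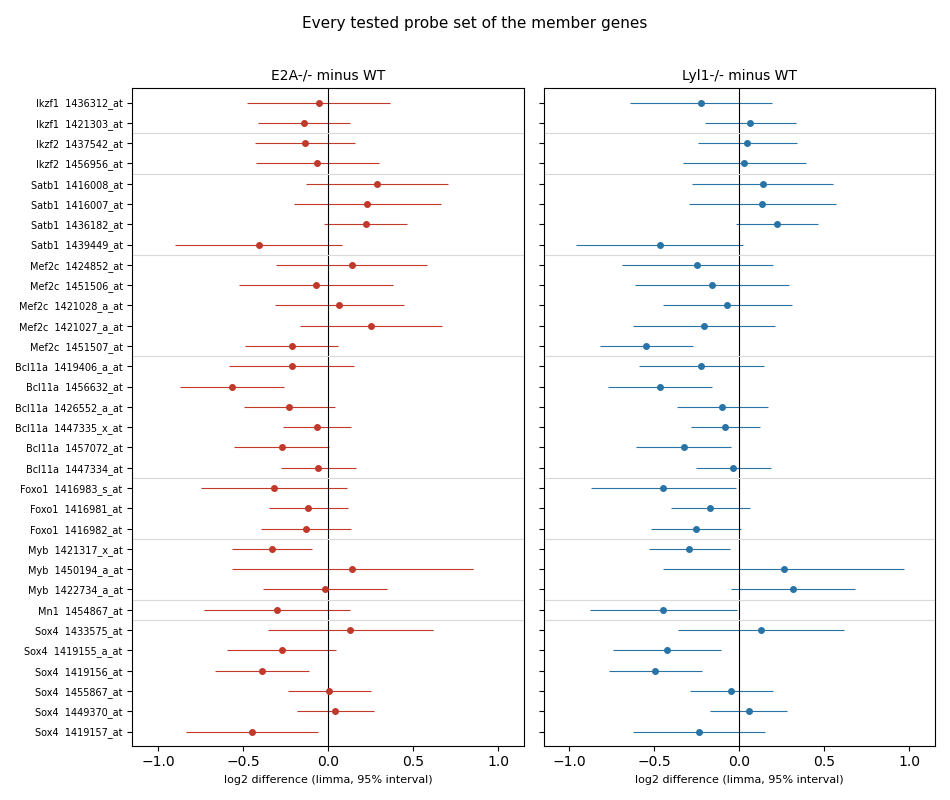
Log2 difference from WT (horizontal axis) of the 32 tested probe sets, grouped by gene down the page, for E2A-/- and Lyl1-/- cells, with 95% intervals from limma as bars. Most intervals include 0; those of Bcl11a 1456632_at, Sox4 1419156_at and Myb 1421317_x_at lie below 0 in both knockouts.

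Satb1, a chromatin organiser that promotes lymphoid fates in stem cells and T cells, had, like Sox4, a brightest probe set with a higher mean in both knockouts. Probe set 1416008_at read 951, 695 and 826 on the E2A-/- arrays, 621, 728 and 885 on the Lyl1-/- arrays, and 593, 738 and 625 on the WT arrays. The groups overlapped, E2A-/- 1 and Lyl1-/- 3 being the highest arrays. Mean log2 intensity was 9.67 ± 0.23 in E2A-/- cells (SD, n = 3), 9.53 ± 0.26 in Lyl1-/- cells (n = 3) and 9.39 ± 0.20 in WT cells (n = 2). Satb1 differed from WT by 0.29 (SE 0.18, limma adjusted p = 0.771) in E2A-/- cells and by 0.14 (SE 0.18, limma adjusted p = 0.932) in Lyl1-/- cells. Probe set 1416007_at overlapped likewise, with 0.23 and 0.14 in the same order. Probe set 1436182_at read 305, 293 and 279.7 on the E2A-/- arrays, 267, 292 and 321 on the Lyl1-/- arrays, and 248, 258 and 241 on the WT arrays. All knockout arrays were above all WT arrays, by 0.22 (SE 0.11, unadjusted p = 0.0701, limma adjusted p = 0.676) in E2A-/- cells and 0.22 (SE 0.11, unadjusted p = 0.0695, limma adjusted p = 0.658) in Lyl1-/- cells. Probe set 1439449_at went the other way, at -0.41 and -0.47, with WT 2 at 177.7 and the other arrays between 87.2 and 115.7. The fifth, 1439315_at, read 56.1 to 85.3 and was not tested.

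The Ikaros family split by level. Ikzf1 encodes Ikaros, a zinc finger factor of lymphoid development. Its probe set 1436312_at read 949, 872 and 688 on the E2A-/- arrays, 613, 727 and 899 on the Lyl1-/- arrays, and 897, 828 and 896 on the WT arrays. All 3 groups overlapped. Mean log2 intensity was 9.69 ± 0.24 in E2A-/- cells (SD, n = 3), 9.53 ± 0.28 in Lyl1-/- cells (n = 3) and 9.75 ± 0.081 in WT cells (n = 2), and the difference from WT was -0.056 (SE 0.18, limma adjusted p = 0.98) in E2A-/- cells and -0.23 (SE 0.18, limma adjusted p = 0.835) in Lyl1-/- cells. Its second probe set, 1421303_at, read 76.5 to 106.8 and stood at -0.14 and 0.065. The 95% intervals of the main Ikzf1 difference were -0.48 to 0.37 in E2A-/- cells and -0.65 to 0.20 in Lyl1-/- cells, which leaves room for changes of a size that these arrays could not call.

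Ikzf2, which encodes Helios, a relative of Ikaros found in stem and progenitor cells and in regulatory T cells, read 325, 322 and 358 on the E2A-/- arrays, 349.6, 448 and 350.4 on the Lyl1-/- arrays, and 338, 376 and 382 on the WT arrays (probe set 1437542_at). The groups overlapped, with Lyl1-/- 2 the highest array. It differed from WT by -0.14 (SE 0.13, limma adjusted p = 0.877) in E2A-/- cells and by 0.047 (SE 0.13, limma adjusted p = 0.975) in Lyl1-/- cells. A second probe set, 1456956_at, read 83.2 to 120.7 and stood at -0.063 and 0.029. The third, 1421643_at, read 65.5 to 77.6 and was not tested.

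Ikzf3, which encodes Aiolos, a factor of committed lymphocytes, was at or under the array median. Its probe set 1441088_at read 72.6, 76.7 and 77.3 on the E2A-/- arrays, 77.1, 77.3 and 86.7 on the Lyl1-/- arrays, and 72.4, 67.4 and 77.5 on the WT arrays. It was above the array median on 1 array, Lyl1-/- 3, and the other 2 probe sets, at 55.2 to 74.0, on 0 arrays. A value there cannot be told from background, so no difference is given for Ikzf3.

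The spread between replicates differed from gene to gene. Among Lyl1-/- arrays the SD of log2 intensity was 0.41 for Sox4, 0.33 for Mn1 and 0.28 for Ikzf1, against a median of 0.12 over all tested genes. Foxo1 and Myb, at 0.041 and 0.030, were the steady ones. Among E2A-/- arrays Foxo1 and Mef2c had the widest spread, 0.38 and 0.37, against a median of 0.15, and Ikzf2 the narrowest, 0.085. Lyl1-/- 3 was the highest of its 3 arrays for 7 of the 9 tested genes, as it was for 34.5% of all tested genes. Lyl1-/- 1 was the lowest for 7 of 9, as for 32.8% of all genes.

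Array by array, the median of the 9 genes relative to the WT mean was -0.18, 0.018 and -0.24 on the E2A-/- arrays and -0.39, -0.25 and -0.069 on the Lyl1-/- arrays. The number of genes below the WT mean was 6, 4 and 7 on the E2A-/- arrays and 9, 6 and 5 on the Lyl1-/- arrays. On the same arrays the median of the mature granulocyte and monocyte list was 0.010, 2.93 and 3.08 in E2A-/- cells and 0.54, 0.61 and -0.057 in Lyl1-/- cells. Of the Lyl1-/- arrays, Lyl1-/- 3 had the median nearest to 0, and it was also the one without Xist signal and with the granulocyte list at the WT level. Single genes were far from WT on it all the same, with Sox4 at 0.52, Satb1 at 0.40 and Foxo1 at -0.46. E2A-/- 2, which had both Xist signal and an excess of granulocyte transcripts, had a median of 0.018. The part of sex or of mature cells in these values was not tested. E2A-/- 1, with the granulocyte list at the WT level, lay between the other E2A-/- arrays, and the erythroid list stood at 0.98 on E2A-/- 3. In bulk RNA, fewer cells of a type and less RNA per cell cannot be told apart.

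**Figure D4:**
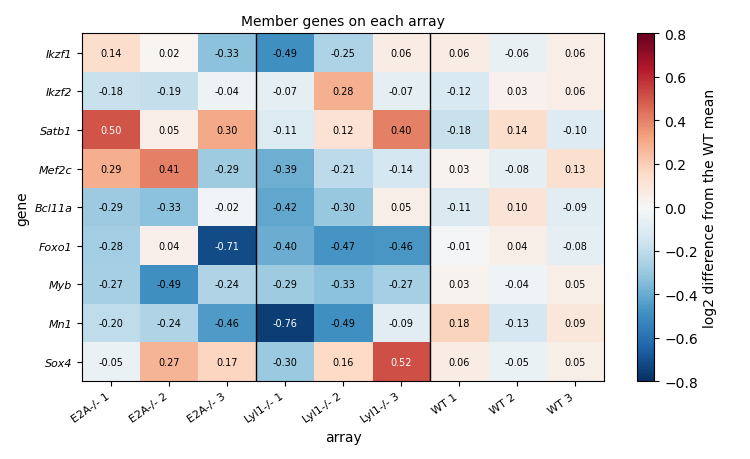
Log2 difference from the WT mean of each of the 9 tested genes (rows) on each of the 9 arrays (columns), from blue (lower) over white to red (higher), with the value printed in each cell and E2A-/- arrays left, Lyl1-/- arrays in the middle and WT arrays right. Myb is below the WT mean on all 6 knockout arrays, Foxo1 reaches -0.71 on E2A-/- 3 and Mn1 -0.76 on Lyl1-/- 1, and Sox4 is highest, at 0.52, on Lyl1-/- 3.

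Of 21 genes that lie downstream in lymphoid priming or mark it, 14 were tested. This list and those below were chosen with earlier results of these data known, so their counts are no independent test. In E2A-/- cells 12 of 14 were lower, with a median log2 difference of -0.46, and at an unadjusted p under 0.05 6 were lower and 1 higher. Among all tested genes 53.7% were lower, 5.36% lower at that p and 3.21% higher at it. Il7r and Blnk, among the 6, read 62.0 to 80.3 on the E2A-/- arrays, whose medians were 78.1 to 79.1. Both were highest on WT 2, at 128.5 and 137.1. In Lyl1-/- cells 10 of 14 were lower, with a median of -0.28, and 2 were lower and 3 higher at that threshold, where 51.4% of all tested genes were lower, 5% lower at that p and 3.8% higher at it. Relative to the WT mean, the list median was -0.34, -0.66 and -0.39 on the E2A-/- arrays. It was -0.45, -0.44 and 0.071 on the Lyl1-/- arrays, so Lyl1-/- 3 did not share the shift. On the WT arrays it was -0.097, 0.13 and -0.11. By limma's adjusted p 0 of 14 passed in either comparison. Gimap6, a GTPase of lymphocytes, read 130.5, 119.7 and 108 on the E2A-/- arrays, 112, 123 and 177 on the Lyl1-/- arrays, and 218, 265 and 203 on the WT arrays. Both knockouts were below WT without overlap, at -0.99 (SE 0.20, limma adjusted p = 0.156) in E2A-/- cells and -0.81 (SE 0.20, limma adjusted p = 0.242) in Lyl1-/- cells.

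Vpreb1, part of the surrogate light chain of early B cells, read 81.6, 78.0 and 82.8 on the E2A-/- arrays, 141, 129 and 140.4 on the Lyl1-/- arrays, and 91.8, 121 and 94.1 on the WT arrays. It was lower than WT on all E2A-/- arrays and higher on all Lyl1-/- arrays, with E2A-/- minus Lyl1-/- at -0.76 (SE 0.11, limma adjusted p = 0.0726). Its E2A-/- readings were near the medians of those arrays, 78.2, 78.1 and 79.1, a level that cannot be told from background. Dntt, the terminal transferase of early lymphocytes, read 1826, 1857 and 1973 on the E2A-/- arrays, 2851, 2939 and 4362 on the Lyl1-/- arrays, and 3795, 4171 and 3916 on the WT arrays. Its E2A-/- arrays lay far below the others, with E2A-/- minus Lyl1-/- at -0.82 (SE 0.16, limma adjusted p = 0.201). Cd52, a lymphocyte surface protein, read 1468, 1171 and 1520.1 on the E2A-/- arrays, 1171, 1125 and 1623 on the Lyl1-/- arrays, and 687, 905 and 752 on the WT arrays, so that all 6 knockout arrays lay above WT.

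Of 22 other lymphoid transcription factors 16 were tested, with medians of -0.091 in E2A-/- cells and -0.097 in Lyl1-/- cells. In each knockout 9 of 16 were lower, beside 53.7% of all tested genes in E2A-/- cells and 51.4% in Lyl1-/- cells. At an unadjusted p under 0.05, 2 were lower in each, beside 5.36% and 5% in the same order. By limma's adjusted threshold 0 passed. Ets1, an ETS family factor of lymphocytes, stood at -0.66 (SE 0.20, limma adjusted p = 0.386) in E2A-/- cells and Runx1, a regulator of blood stem cells, at -0.46 (SE 0.16, limma adjusted p = 0.44). Gfi1, a repressor in progenitors, stood at -0.59 (SE 0.21, limma adjusted p = 0.458) in Lyl1-/- cells and Hoxa9, a homeobox factor of progenitors, at -0.64 (SE 0.27, limma adjusted p = 0.554). Of these genes only Hoxa9 overlapped WT in the knockout named. It read 775, 746 and 1281 on the Lyl1-/- arrays, and 1158, 1738 and 1141 on the WT arrays. Between the knockouts Gfi1 differed by 0.69 (SE 0.19, limma adjusted p = 0.389).

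Of 14 close relatives of the regulators 9 were tested, with medians of -0.062 in E2A-/- cells and 0.062 in Lyl1-/- cells. In Lyl1-/- cells 8 of 9 were higher, as were 48.6% of all tested genes. At an unadjusted p under 0.05, 1 was lower in E2A-/- cells, beside 5.36% of all tested genes. At the same threshold 1 was higher in Lyl1-/- cells, beside 3.8%, and 0 passed limma's adjusted threshold. Foxo3, a forkhead relative of Foxo1 that holds stem cells quiescent, read 427, 459 and 914 on the E2A-/- arrays, 736, 675 and 1003 on the Lyl1-/- arrays, and 438, 502 and 415 on the WT arrays. It was above WT on all Lyl1-/- arrays and on E2A-/- 3, at 0.78 (SE 0.32, limma adjusted p = 0.542) in Lyl1-/- cells, where Foxo1 stood at -0.45. Mef2d, a relative of Mef2c, stood at -0.34 (SE 0.13, limma adjusted p = 0.512) in E2A-/- cells, where Mef2c stood at 0.14. The other 2 relatives with the smallest p, Mybl2 and Sox12, stood at -0.083 and 0.14 in E2A-/- cells and 0.29 and 0.035 in Lyl1-/- cells.

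Subunits of the NuRD complex, the nucleosome remodelling and deacetylase complex that Ikaros recruits, were close to WT as a list. All 13 were tested, with medians of -0.028 in E2A-/- cells and 0.023 in Lyl1-/- cells, and 0 passed limma's adjusted threshold. At an unadjusted p under 0.05, 3.21% of all tested genes were higher in E2A-/- cells and 3.8% in Lyl1-/- cells. Hdac1, a histone deacetylase subunit, was the 1 NuRD gene past that threshold in each comparison with WT. It read 364, 369 and 363 on the E2A-/- arrays, 461, 405 and 347 on the Lyl1-/- arrays, and 291, 295 and 288 on the WT arrays. All 6 knockout arrays lay above WT, at 0.32 (SE 0.12, limma adjusted p = 0.531) in E2A-/- cells and 0.46 (SE 0.12, limma adjusted p = 0.293) in Lyl1-/- cells. Its fellow subunits Rbbp7, Chd3 and Hdac2 stood at 0.23, -0.27 and -0.23 in E2A-/- cells and at 0.018, -0.30 and -0.38 in Lyl1-/- cells.

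For the 4 regulators with the largest F statistic over genotypes, the tested genes whose pattern over the 8 samples was most alike were listed, out of 11960 others. The nearest to Myb were Mindy1 (Pearson r = 0.973), Evi2a (0.969) and Cnrip1 (0.967). Foxo1 was followed by Gtf3c2 (0.970), Mmp2 (0.961) and Zfp934 (0.961). For Mn1 they were Tmpo (0.950), Lyplal1 (0.950) and Srp14 (0.945), and for Mef2c Wipf1 (0.953), Rfx7 (0.951) and Ctbp1 (0.950). These values are the highest of many over few samples that share their arrays, and describe likeness in these samples only.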

How the data were processed

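RNA of CD135+ progenitors from 9 samples (3 per genotype) was biotin-labelled and hybridised to Affymetrix 3-prime arrays, per the labels. The deposited values are 1 linear intensity per probe set and array; RMA and oligo are named, without a version, in the submitters' processing notes. Array medians ran from 77.9 to 79.2 and minima from 42.1 to 45.1, a floor that understates differences of dim genes. Precision is limited by how many arrays there are.

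From these, log2 was taken with no pseudocount. Of 45101 probe sets, 64 were controls, and GEO's platform annotation gave 1 gene for 34945, several for 932 and none for 9160. A probe set of 1 gene entered the test if it exceeded the array median on 3 arrays or more; the brightest probe set (by mean log2 intensity) stood for its gene. WT 1 and WT 3 were averaged (robust spread of their log2 difference at bright over dim probe sets 1.15, against 2.15 to 4.21 in other pairs). The 8 samples were fitted in R 4.3.3 with limma 3.58.1 (lmFit, eBayes), 3 genotypes in 1 model with 5 residual degrees of freedom; adjusted p-values are limma's Benjamini-Hochberg values, with a threshold of 0.05. The script was tested on simulated data. The 10 genes and all context lists were chosen with earlier results of these data known. Named were all 10 genes, the targeted genes, up to 4 genes of each context list with the smallest p against WT, and the 3 genes nearest to each of the 4 regulators with the largest F statistic. Lists of mature T and NK, mature B and plasma, erythroid, granulocyte and monocyte and progenitor (Kit, Flt3 and Cd34) genes served as a check of the sorted cells: relative to WT their medians were 0.05, 0.42, 0.55, 1.96 and -0.15 in E2A-/- cells and 0.05, -0.43, -0.16, 0.38 and -0.40 in Lyl1-/- cells. These medians rest on 4, 2, 4, 12 and 3 tested genes in the same order. The 2 of the B and plasma list were Sdc1 (0.86 in E2A-/- cells, -0.92 in Lyl1-/- cells) and Cd22 (-0.016 and 0.070). Alternatives changed the filter, normalization, probe set summary, variance prior, offset, covariates and arrays.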

Additional observations from a re-analysis of the deposited data

How the results depend on the processing

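In each of the 3 comparisons 0 of the 10 regulators and 0 of their probe sets passed limma's adjusted threshold under every alternative run, including all 9 arrays as separate samples; the smallest adjusted p was 0.0598, for a probe set in Lyl1-/- cells in that fit. Whether replicate numbers pair the samples could not be settled. Correlations of same-numbered arrays ran from -0.14 to 0.22, and 4 of 9 arrays correlated best with their own number. WT 2 and E2A-/- 2, the arrays of high actin ratio, stood at 0.13. With all 9 arrays as separate samples and a replicate block the count was again 0. Averaging a gene's probe sets has no value for single probe sets. Signs turned in small, uncalled log2 differences, and the cause was not tested. When a gene's probe sets were averaged, Sox4 stood at -0.11 in E2A-/- and -0.12 in Lyl1-/- cells against WT, Myb at 0.093 and Satb1 at -0.013 in Lyl1-/- cells against WT, and E2A-/- minus Lyl1-/- was -0.020 for Ikzf1 and -0.033 for Bcl11a. E2A-/- minus Lyl1-/- became 0.0067 for Myb, -0.055 for Sox4 and -0.019 for Bcl11a with the actin ratio as covariate, and -0.058 for Sox4 and -0.088 for Bcl11a with Xist. Without WT 1 and WT 3, Ikzf1 in E2A-/- cells was 0.000625 and Satb1 in Lyl1-/- cells -0.0022 against WT. Without WT 2 and E2A-/- 2, Mef2c in E2A-/- cells was -0.071 against WT, and E2A-/- minus Lyl1-/- was 0.041 for Myb, -0.068 for Sox4 and -0.051 for Foxo1. Without E2A-/- 2 and 3, Ikzf1 was 0.14 and Sox4 -0.053 in E2A-/- cells against WT, and E2A-/- minus Lyl1-/- was 0.026 for Myb, -0.18 for Sox4 and -0.065 for Bcl11a. Leaving out 1 array at a time, E2A-/- minus Lyl1-/- ranged from -0.087 to 0.15 for Bcl11a, -0.051 to 0.32 for Foxo1, -0.0078 to 0.32 for Mn1, -0.084 to 0.041 for Myb and -0.21 to 0.20 for Sox4; E2A-/- minus WT from -0.15 to 0.078 for Ikzf1; and Lyl1-/- minus WT from -0.071 to 0.11 for Ikzf2 and -0.068 to 0.34 for Sox4. Signal near the array median limits Ikzf3 and the dim probe sets, and 3 samples or fewer per genotype limit the rest.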
